A study of Mus musculus with 11 samples.

Results

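The SOCS family holds the feedback inhibitors of cytokine signalling, and its 8 genes (Socs1 to Socs7 and Cish) were followed in dendritic cells of the mouse spleen with and without exposure to a B cell lymphoma. Socs2 and Socs3 rose in lymphoma-exposed cells, each by 0.83 on the log2 scale (1.78-fold), and the other 6 genes did not pass the test. The genes were taken by family name, and each was represented by 1 probeset chosen by its mean over all 11 arrays, the highest among those that name only that gene. That choice did not use the difference between the groups. The family itself was taken up with earlier results of these data known, the rises of Socs2 and Socs3 among them, so the count of risen members is a description of the family and not evidence about it. All 8 genes had values, out of 22180 genes tested. They had 11 probesets between them, 1 for each of 5 genes and 2 for each of Socs2, Socs3 and Cish.

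The 5 exposed arrays came from C57BL/6 mice that had received Eµ-Myc lymphoma cells by transfer, and the 6 naive arrays from C57BL/6 mice without lymphoma. Eµ-Myc lymphoma is an aggressive B cell tumour that arises from a Myc transgene active in B cells. In both groups the cells had been sorted from spleen as positive for CD11c and MHC class II, to a purity over 95%, and in the transfer mice tumour cells averaged 10 to 36% of splenic lymphocytes. The labels give no age, sex or time after transfer, and they do not say whether each array stands for 1 mouse, so p-values measure the spread between these arrays only. Values are log2 expression made by the authors with RMA, a method that corrects background, normalises arrays to each other and combines the probes of a probeset. Levels of different genes are not compared, because each probeset has its own response.

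Cytokines such as interleukin 6, interferons and growth factors bind receptors that carry JAK kinases. The kinases phosphorylate STAT transcription factors, and these switch on target genes that include Cish, Socs1, Socs2 and Socs3. SOCS proteins then dampen the same pathway: their SH2 domain binds the phosphorylated receptor or kinase, and their SOCS box recruits a ubiquitin ligase built on elongins and a cullin. Socs1 and Socs3 also carry a short region that inhibits the kinase directly. In dendritic cells the family limits responses to interferon, interleukin 6 and GM-CSF, and Socs2 is known as a gene of maturing cells.

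Array medians lay between 5.53 and 5.61, and correlations between any pair of arrays between 0.989 and 0.996. The 95th percentile of the olfactory receptor genes, which these cells are not known to use, was 5.60 and served as a mark for dim probesets. The chosen probesets of 7 members averaged above it over all arrays, and that of Cish, at 5.57, did not. The sort marker genes measured here were high in both groups: Itgax, which encodes CD11c, averaged 11.98 ± 0.13 (SD, n = 5) in exposed and 12.11 ± 0.08 (SD, n = 6) in naive cells, and it and the MHC class II genes H2-Aa and H2-Ab1 did not pass the test. With group in the fit, arrays numbered 1 to 3 differed from those numbered 4 to 6 at 731 of the 22180 genes tested. These numbers come from the labels, which give no reason for the difference. The split was chosen because earlier results of these data had shown arrays 1 to 3 and 4 to 6 apart. The 731 genes therefore describe the split and are not independent evidence for it. None of the 8 members was among the 731 genes (lowest limma adjusted p 0.276, Cish). Few of all genes were, so nothing is read from this count.

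RefSeq promoter windows (build GRCm38.p6) were held for 4 of the 8 genes, Cish, Socs1, Socs3 and Socs4. They are shown for 3 members whose induction by STAT factors or interferon is textbook knowledge, 1 that rose here and 2 that did not pass. Each window runs on the gene's strand from 250 bases before the transcript start to 30 bases from the start on. Capitals mark matches to TTCNNNGAA, the GAS element that STAT dimers bind, or to the core of the interferon-stimulated response element, GAAA and GAAA with 2 bases of any kind between. Both strands were searched. The wider form favoured by STAT6, TTC and GAA with 4 bases of any kind between, was searched as well and had no match in the 4 windows, against 6.50% of all windows.
Socs3, chr11:117969337-117969616, minus strand: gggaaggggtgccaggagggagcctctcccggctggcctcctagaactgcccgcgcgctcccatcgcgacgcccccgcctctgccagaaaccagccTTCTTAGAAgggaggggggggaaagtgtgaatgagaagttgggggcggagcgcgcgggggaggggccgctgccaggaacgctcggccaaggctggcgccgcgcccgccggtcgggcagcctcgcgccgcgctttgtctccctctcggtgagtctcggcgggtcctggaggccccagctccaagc
Socs1, chr16:10785507-10785786, minus strand: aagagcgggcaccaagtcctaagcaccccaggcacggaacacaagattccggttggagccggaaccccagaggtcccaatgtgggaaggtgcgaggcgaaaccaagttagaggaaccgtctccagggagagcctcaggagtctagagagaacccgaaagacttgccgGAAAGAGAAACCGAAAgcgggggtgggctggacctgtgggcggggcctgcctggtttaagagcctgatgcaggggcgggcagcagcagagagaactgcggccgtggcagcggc
Cish, chr9:107296409-107296688, plus strand: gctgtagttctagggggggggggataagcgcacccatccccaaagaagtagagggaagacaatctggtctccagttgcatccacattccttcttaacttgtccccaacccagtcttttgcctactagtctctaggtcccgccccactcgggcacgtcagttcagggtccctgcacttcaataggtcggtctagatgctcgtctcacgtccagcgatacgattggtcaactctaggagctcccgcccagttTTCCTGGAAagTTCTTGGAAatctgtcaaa
The Socs3 window held 1 GAS match, from -154 to -146 counted from the start. Cish held 2, from 1 to 9 and from 12 to 20, and Socs1 held 2 matches to the interferon element that overlap each other, from -83 to -74 and from -77 to -68. Of all 32851 windows of this length, 7.83% held at least 1 GAS match and 0.408% at least 2, and 3.28% held at least 1 interferon element core and 0.210% at least 2. Socs4 had no match to any of the 3 motifs. A match describes letters and is not a bound site.

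Socs2, which binds the growth hormone receptor and limits its signalling, was higher in every exposed array than in any naive array. On its chosen probeset (17274184) the exposed arrays 1, 2, 3, 4 and 6 measured 9.44, 9.48, 9.04, 9.20 and 9.03. The naive arrays lay lower and spread wider, with a lowest value of 8.04, a median of 8.46 and a highest of 8.72. The means were 9.24 ± 0.21 (SD, n = 5) in exposed and 8.41 ± 0.27 (SD, n = 6) in naive cells. The difference of 0.83 ± 0.13 (SE; 95% limits 0.55 to 1.11) passed with an adjusted p of 0.00866 by limma over all genes. The gap between the lowest exposed and the highest naive array was 0.32. In sorted bulk cells more RNA per cell and more cells of a type that carries it cannot be told apart, for this and every other gene described.

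The other Socs2 probeset (17244486) had a smaller difference of the same sign, which did not pass. It measured 6.75, 6.79, 6.70, 6.75 and 6.62 in the exposed arrays 1, 2, 3, 4 and 6, against 6.36 to 6.62 in the naive arrays. The lowest exposed value equalled the highest naive value exactly, so the groups touch. Its difference was 0.23 ± 0.06 (SE) with an adjusted p of 0.150 over all probesets. The mean of both Socs2 probesets gave 0.53 (adjusted p = 0.0124), so the size of the Socs2 rise depends on the probeset while its direction does not.

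Socs3, the main brake on signalling through the interleukin 6 receptor subunit gp130, was the other member whose groups did not overlap. Its chosen probeset (17272619) measured 7.99, 8.55, 8.07, 7.79 and 7.51 in the exposed arrays 1, 2, 3, 4 and 6. Naive arrays were tightly grouped, with a lowest value of 6.88, a median of 7.21 and a highest of 7.27. The exposed arrays thus spread over more than 1 log2 unit, with array 2 highest and array 6 nearest to the naive range, 0.24 above it. The means were 7.98 ± 0.38 (SD, n = 5) in exposed and 7.15 ± 0.14 (SD, n = 6) in naive cells, a difference of 0.83 ± 0.14 (SE; 95% limits 0.52 to 1.14; limma adjusted p = 0.0160).

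The other Socs3 probeset (17547600) gave nearly the same size of difference from a dimmer signal, on average 5.51 and so below the dim mark. It measured 6.09, 6.43, 6.00, 5.53 and 5.64 in the exposed arrays 1, 2, 3, 4 and 6, against 4.80 to 5.53 in naive cells. Exposed array 4 equalled the highest naive array, and the other 4 exposed arrays lay above it. The difference was 0.77 ± 0.16 (SE), with an adjusted p of 0.0557 over all probesets. Exposed array 2 was the highest exposed array at both probesets of Socs3 and at both of Socs2.

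**Figure D1:**
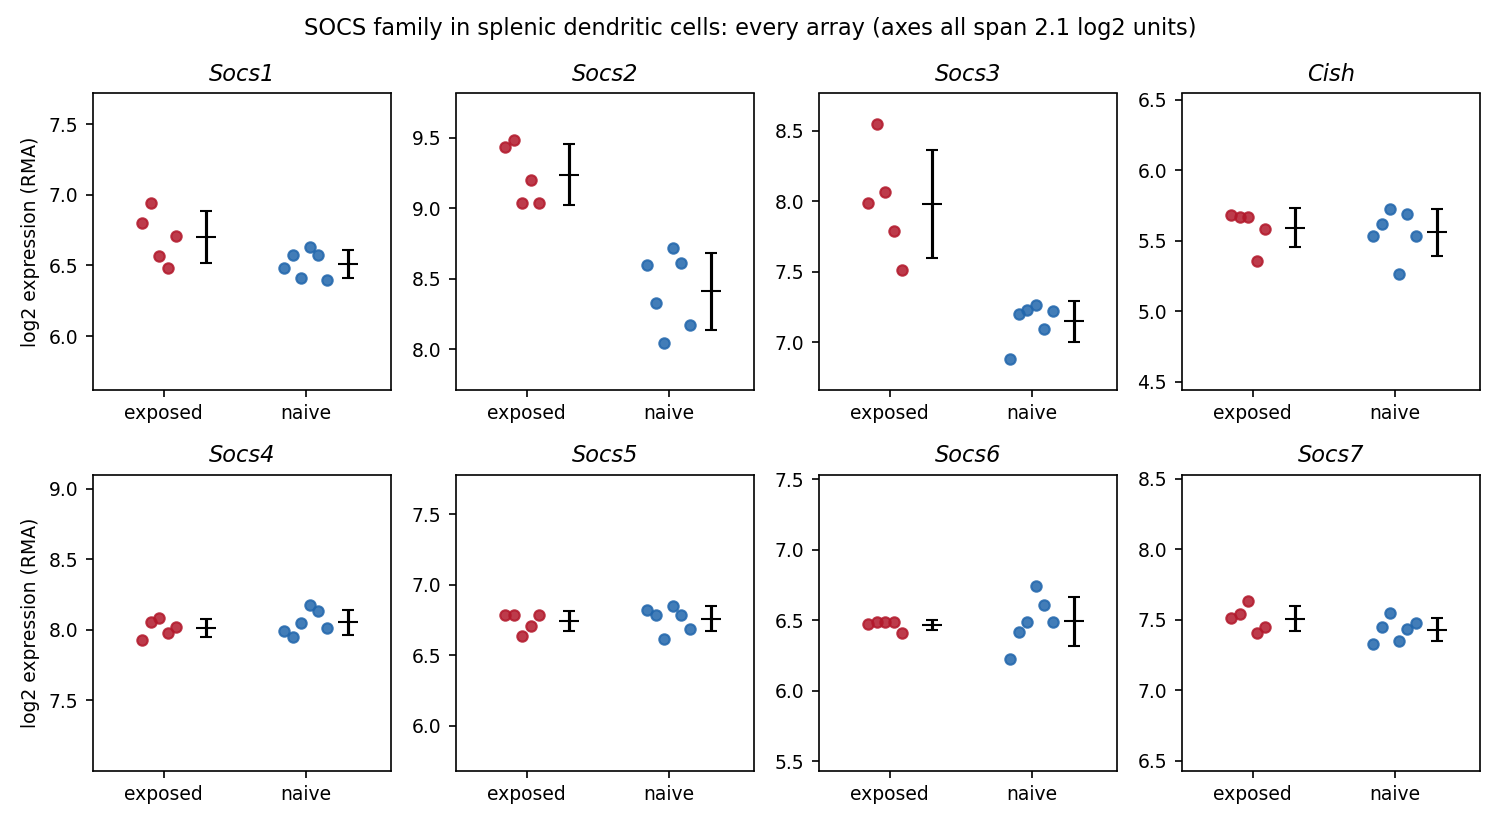
Each point is the log2 expression (RMA) of 1 array at the chosen probeset of a gene, with 5 lymphoma-exposed arrays in red and 6 naive arrays in blue, and the black bars give the group mean ± SD. The vertical axes differ in level but span the same number of log2 units. Exposed and naive arrays are apart for Socs2 and Socs3 and overlap for the other 6 genes.

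Socs1, the inhibitor that restrains interferon and JAK2 signalling, was 0.19 ± 0.08 (SE) higher in exposed cells, which did not pass (95% limits 0.01 to 0.37; adjusted p = 0.364 over all genes). The exposed arrays 1, 2, 3, 4 and 6 measured 6.80, 6.94, 6.57, 6.48 and 6.71, and the naive arrays ran from 6.39 over a median of 6.53 to 6.63. Exposed arrays 1, 2 and 6 lay above all naive arrays and arrays 3 and 4 lay among them. The means were 6.70 ± 0.18 (SD, n = 5) in exposed and 6.51 ± 0.10 (SD, n = 6) in naive cells.

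Cish, the first described member and an inhibitor of interleukin 2 and GM-CSF signalling that STAT5 induces, did not differ beyond its spread at either probeset. At the chosen one (17530881) it measured 5.68, 5.67, 5.67, 5.35 and 5.58 in the exposed arrays 1, 2, 3, 4 and 6, against 5.26 to 5.72 in the naive arrays. Every exposed value lay inside the naive range. The difference was 0.03 (95% limits -0.16 to 0.22; adjusted p = 0.936), and at the other probeset (17521300), with a mean of 5.13, it was -0.03 (95% limits -0.31 to 0.25). Both probesets averaged below the dim mark, where a change in a transcript shows less in the signal.

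Socs4 and Socs5, which share a long N-terminal part and are linked to the epidermal growth factor receptor, did not pass. Socs4 measured 7.93 to 8.08 in exposed and 7.95 to 8.17 in naive arrays (difference -0.04, adjusted p = 0.855). Socs5 measured 6.63 to 6.79 in exposed and 6.62 to 6.85 in naive arrays (difference -0.02, adjusted p = 0.953). Socs6 and Socs7 form the other long-tailed pair, linked to receptor tyrosine kinase and insulin signalling. Socs7 measured 7.40 to 7.63 in exposed and 7.32 to 7.55 in naive arrays (difference 0.08, adjusted p = 0.676).

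Socs6 measured 6.41 to 6.49 in exposed and 6.23 to 6.74 in naive arrays (difference -0.03, adjusted p = 0.941). Its small exposed spread rests partly on identical values: 3 exposed and 2 naive arrays were all listed at 6.49, the same number to every deposited digit. Socs5 had such a shared value too, 6.79 in 3 exposed and 2 naive arrays. Across the chosen probesets of the 5 genes Socs4 to Socs7 and Cish, the 95% limits of the differences lay between -0.20 and 0.22. These limits hold for a probeset's signal and cannot exclude a larger rise of the transcript. At the other Socs2 probeset the limits were 0.09 to 0.36, below the 0.83 of the chosen Socs2 probeset.

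Of the 8 members, 2 rose, none fell and 6 did not pass at an adjusted p under 0.05. Over all genes, 0.879% rose and 1.42% changed in either direction. Of the changed genes 61.7% were higher, and 43.6% when the arrays were set to a common 75th percentile, where Socs2 and Socs3 passed as well. The groups were apart, with no overlap of arrays, at 2 of the 8 members and at 2.29% of all genes. The median difference over the 8 members was 0.05, beside 0.01 over all genes, so most of the family lay close to the middle of all genes. Because the family was taken up with these results known, nothing is read from the shares.

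**Figure D2:**
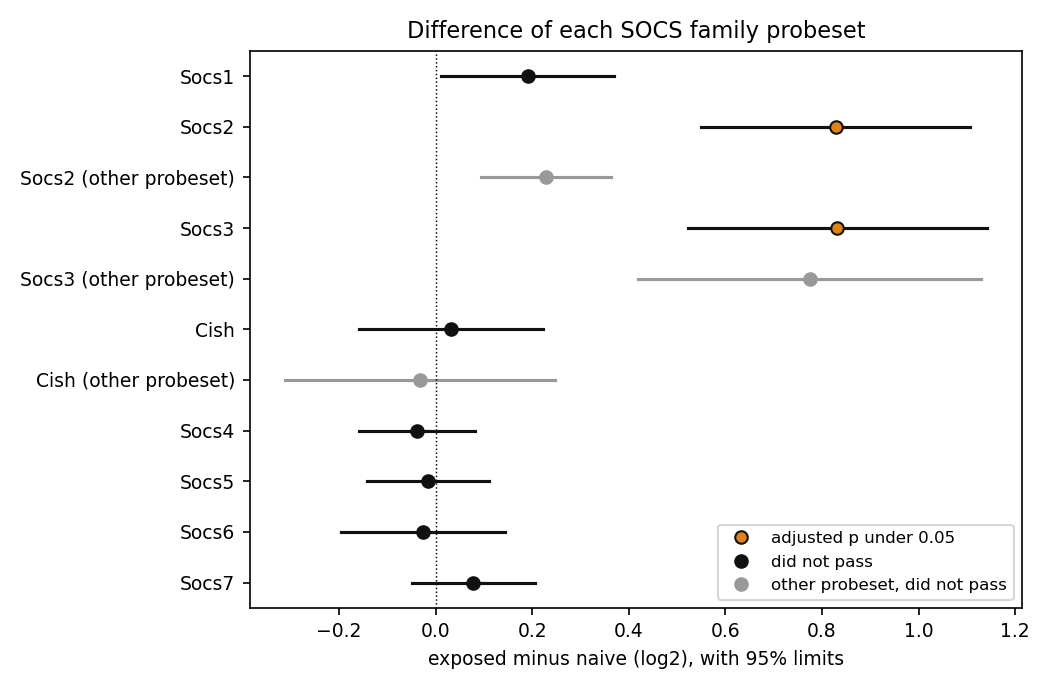
Points give the difference exposed minus naive on the log2 scale for each of the 11 probesets of the family, and lines the 95% limits from limma. The chosen probesets of Socs2 and Socs3 stand near 0.83, the other Socs2 probeset at 0.23 and the other Socs3 probeset at 0.77.

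Both differences measured larger among arrays numbered 1 to 3 than among those numbered 4 to 6, but the contrast between the number sets did not pass. Socs2 differed by 1.00 in arrays 1 to 3 (3 exposed, 3 naive) and by 0.62 in arrays 4 to 6 (2 exposed, 3 naive). Socs3 differed by 1.10 and 0.46 in the same order. The Socs3 means were 8.20 in exposed and 7.10 in naive arrays 1 to 3, and 7.65 in exposed and 7.20 in naive arrays 4 to 6. The test of the difference between the number sets, a limma interaction term, did not pass for either gene (Socs2 -0.38, adjusted p = 0.992; Socs3 -0.64, unadjusted p = 0.0124, adjusted p = 0.992), nor for any gene tested, with 943 genes at an unadjusted p under 0.05. Tested alone, neither number set gave a pass for any member, and in a fit blocked by number set Socs2 (0.83, adjusted p = 0.00814) and Socs3 (0.81, adjusted p = 0.00935) passed. Socs1 differed by 0.28 in arrays 1 to 3 and by 0.06 in arrays 4 to 6, with an interaction that did not pass (adjusted p = 0.992).

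**Figure D3:**
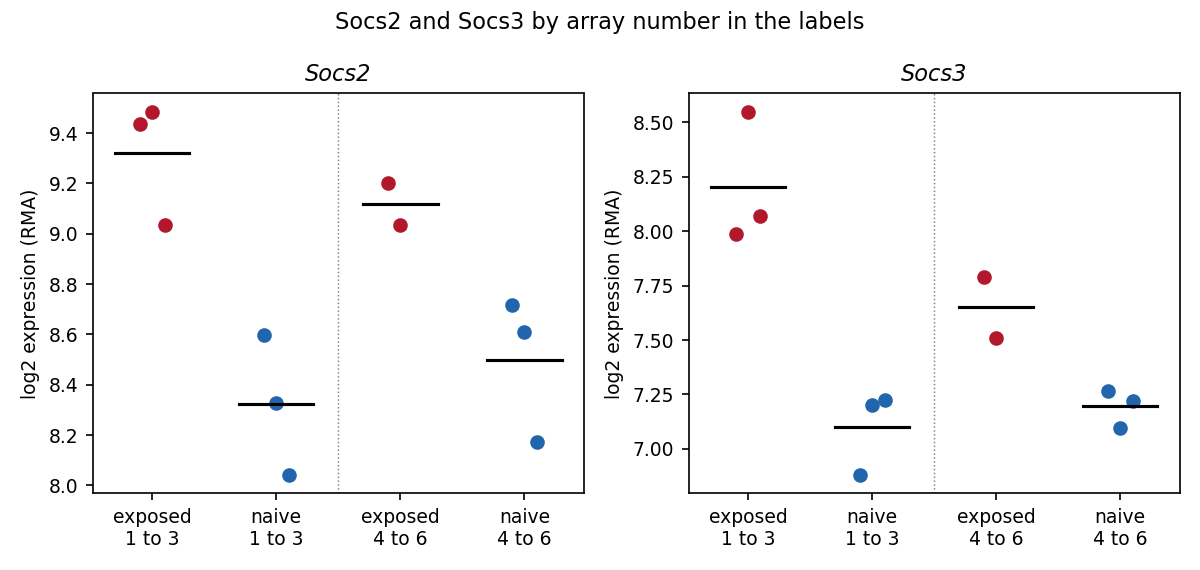
Log2 expression (RMA) of Socs2 (left) and Socs3 (right) in each array, split by the array number in the labels, with exposed arrays in red, naive arrays in blue and black lines at the means. In both number sets every exposed array lies above every naive array of that set, by 1.00 and 0.62 on average for Socs2 and by 1.10 and 0.46 for Socs3.

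Markers of other cells and of dendritic cell subsets stand here beside the 2 rises, and apart from the fits below their part in them was not tested. Of 10 red pulp macrophage marker genes, all above the dim mark, 9 were higher in exposed cells and 0 passed (differences -0.18 to 1.89, lowest adjusted p 0.0693). Over all genes, 53.5% had positive differences, and this share stands beside each sign count of a marker list. Genes of a marker list can move together, so no test was made of such counts. Their mean level was 10.87, 9.94, 9.19, 9.02 and 8.95 in exposed arrays 1, 2, 3, 4 and 6, against 8.23 to 9.35 in naive arrays. Array 1 was highest for these markers and array 2 for Socs2 and Socs3. Among exposed arrays, 1 and 2 lay above the others for the markers and for Socs2, and 2 and 3 for Socs3. Exposed array 6 was the lowest exposed array for the markers, for Socs2 and for Socs3. With this level as a covariate Socs2 gave 0.63 (adjusted p = 0.0497) and Socs3 0.71 (adjusted p = 0.0843). Without exposed array 1 the differences were 0.78 for Socs2 (adjusted p = 0.0183) and 0.83 for Socs3 (adjusted p = 0.0255).

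Markers of mature dendritic cells rose in part: of 9 genes, Il12b, Anxa3 and the actin bundler Fscn1 rose and 6 did not pass. By sign, 6 of the 9 were higher in exposed cells, and Cd86 (-0.22), Ccl22 (-0.16) and Cd83 (-0.06) were lower. The mean level of the 9 genes ran from 9.85 to 10.27 in exposed and from 9.71 to 9.96 in naive arrays, which overlap. With it as a covariate Socs2 gave 0.71 (adjusted p = 0.0560) and Socs3 0.87 (adjusted p = 0.0464). Of 8 markers of type 2 conventional dendritic cells 2 fell (Cd209a fell by 1.02 and Clec4a4 fell by 0.43) and 6 did not pass. By sign 2 of the 8 were higher in exposed cells, Clec10a (0.27, below the dim mark) and Sirpa (0.06). Mean levels of the 8 type 2 markers were 9.33 to 9.63 in exposed and 9.61 to 9.85 in naive arrays. Markers of type 1 cells (8 measured, 0 passed) ran from 10.40 to 10.75 in exposed and from 10.43 to 10.74 in naive arrays, and plasmacytoid markers (6 measured, 0 passed) from 7.60 to 8.10 in exposed and from 7.54 to 7.88 in naive arrays. Of 5 NK cell markers 1 rose, Ncr1 by 0.46, and 3 lay below the dim mark. By sign 3 of the 5 were higher in exposed cells, and Eomes (-0.09) and Gzma (-0.07) were lower. Mean levels of the 5 NK cell markers were 5.07 to 5.34 in exposed and 4.93 to 5.17 in naive arrays.

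Of 8 neutrophil markers 0 passed and 7 lay below the dim mark, with mean levels of 4.71 to 4.91 in exposed and 4.71 to 4.82 in naive arrays. Monocyte markers (7 measured, 6 higher in exposed cells, 0 passed) ran from 6.86 to 7.36 in exposed and from 6.79 to 7.19 in naive arrays. The largest of their differences was that of Csf1r, at 0.41 (limma adjusted p = 0.249), and its groups were apart. B cell markers, of which Cd22 fell and 7 did not pass, ran from 7.52 to 7.87 in exposed and from 7.61 to 7.80 in naive arrays. Of these 8 markers, 4 had positive differences, the largest that of Cd79a (0.36). The others had negative ones, the largest in size that of Cd22 (-0.54). The T cell markers (6 measured, 5 below the dim mark) ran from 5.69 to 5.91 in exposed and from 5.69 to 5.86 in naive arrays.

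Upstream of the SOCS genes stand the cytokines that signal through JAK kinases. Of 34 measured cytokine genes 2 rose and none fell, and 12 of the 34 averaged above the dim mark. Il6, the ligand whose receptor Socs3 restrains, rose by 1.62 ± 0.20 (SE; adjusted p = 0.00345), at 7.16 ± 0.40 (SD, n = 5) in exposed and 5.54 ± 0.40 (SD, n = 6) in naive cells. The naive mean of Il6 lies below the dim mark, so the size of its difference is set against a level not above background. Il12b, which encodes the subunit shared by IL-12 and IL-23, rose by 0.81 ± 0.17 (adjusted p = 0.0300). The median over the list was 0.06. Il10, a further inducer of Socs3 and named here after its values were seen, was 0.75 higher without passing (adjusted p = 0.175) and averaged below the dim mark.

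Of 36 measured receptor genes that signal through JAK kinases, 3 rose, none fell and 33 did not pass, with a median difference of 0.01. Il23r, the specific subunit of the IL-23 receptor, rose by 0.81 ± 0.15 (adjusted p = 0.0189) at a level below the dim mark. Il7r, the receptor for interleukin 7 and TSLP, rose by 0.58 ± 0.12 (adjusted p = 0.0311), and Il2ra, the high-affinity subunit of the interleukin 2 receptor, by 0.55 ± 0.12 (adjusted p = 0.0389). For each of these 3 receptors the lowest exposed array exceeded the highest naive one. They were named because they passed, so this adds no support. Arrays did not overlap at 2.29% of all genes in either direction. Csf3r, which did not pass (0.36, limma adjusted p = 0.0589), was apart as well.

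Of the kinases and factors between receptor and SOCS gene, Stat4 alone passed. The 3 measured kinase genes differed by -0.03 (Jak1, the largest in size; adjusted p = 0.848) to 0.01. Of 6 measured STAT genes, Stat4, which transmits interleukin 12 signals, fell to 9.35 ± 0.22 (SD, n = 5) in exposed cells, against 9.99 ± 0.25 (SD, n = 6) in naive cells. Its difference was -0.64 ± 0.12 (SE; adjusted p = 0.0239), with -0.95 in arrays 1 to 3 and -0.27 in arrays 4 to 6. The other 5 differed by -0.19 to 0.06 and did not pass. Among them, named after their values were seen, Stat3 differed by 0.03, Stat5a by 0.06 and Stat5b by -0.0021.

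Other brakes on the pathway did not pass as single genes. Of 13 measured inhibitors, which include the PIAS proteins and the phosphatases, 9 had positive differences and 0 passed by limma at an adjusted p under 0.05. Over all genes, 53.5% had positive differences. The largest difference was that of Ptpn1, a phosphatase that acts on JAK2 and TYK2, at 0.30 ± 0.08 (adjusted p = 0.0780), and its groups were apart. Of 7 measured ubiquitin ligase partners of the SOCS box 1 fell: Arih2, a ligase that works with cullin 5, differed by -0.34 ± 0.07 (adjusted p = 0.0245), and the others by 0.04 to 0.13. Of 26 other genes for SOCS box proteins 0 passed, with differences of -0.23 (Asb17, a dim one; adjusted p = 0.323) to 0.12 and a median of 0.0028.

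Genes known as targets of STAT3 and STAT5 stood in 2 lists that share Pim1 and Bcl6. Of 16 measured STAT3 target genes, 1 rose: Batf, a transcription factor of the AP-1 family, by 0.35 ± 0.08 (adjusted p = 0.0465), and the list's median was -0.02. Of 12 STAT5 target genes 2 rose, Il2ra again and Lta, the lymphotoxin alpha gene, which differed by 0.98 ± 0.09 (adjusted p = 0.000542), and the median was 0.06. Cish, itself a STAT5 target, did not pass, but both its probesets averaged below the dim mark, while Il2ra and Lta averaged above it. The aryl hydrocarbon receptor is known to induce Socs2 in mouse, and of 7 genes of that receptor's list Ahr itself fell by 0.45 ± 0.10 (adjusted p = 0.0495) and 6 did not pass.

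**Figure D4:**
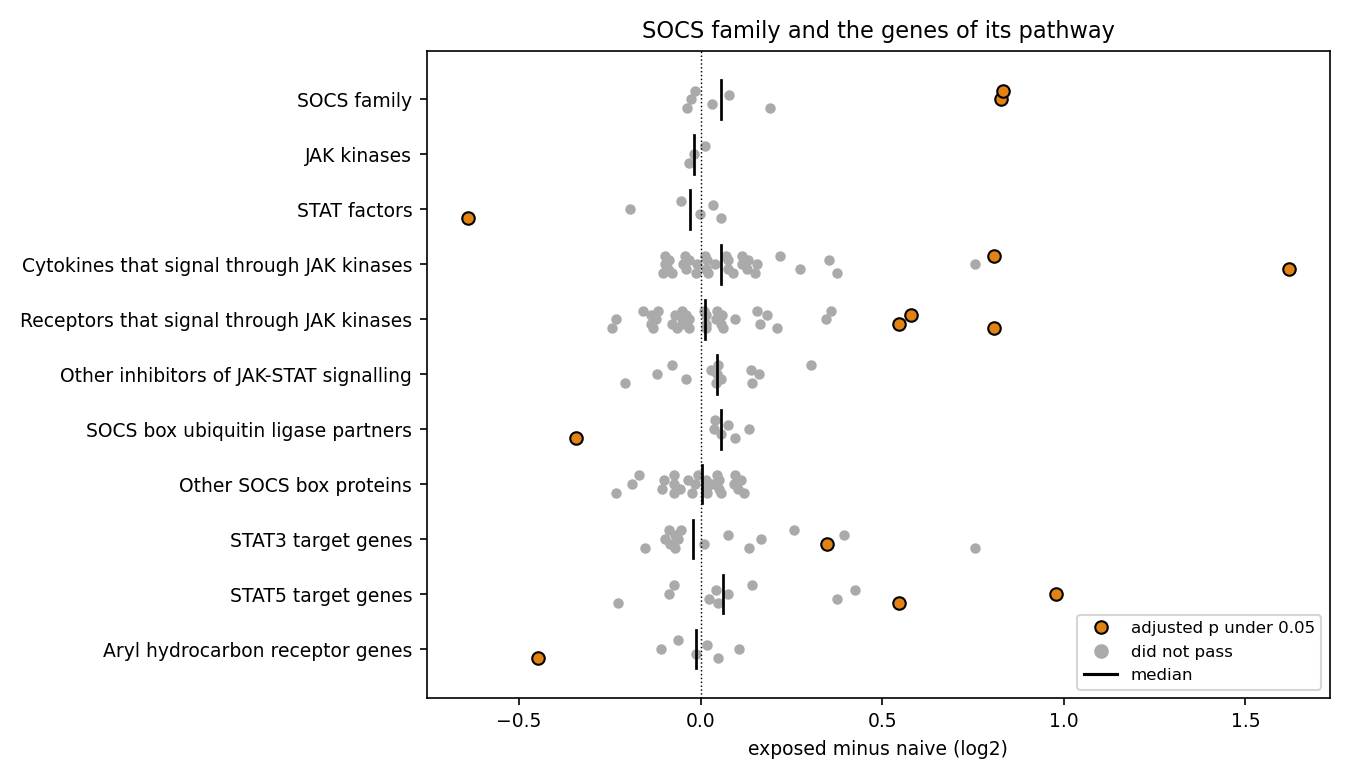
Each point is the difference exposed minus naive (log2) of 1 gene, sorted into the SOCS family and 10 lists of pathway genes, with genes that passed in orange and the median of each list as a black line. The medians all lie close to 0, and the passing genes are Socs2, Socs3 and some members of other lists. Il6 is drawn at 1.62, against a naive mean below the dim mark.

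The genes most like Socs2 and Socs3 over the arrays were found by Pearson's r over all 11 arrays, among 11612 other genes above the dim mark, without predicted genes, small RNA genes and antigen receptor segments. Closest to Socs2 were Gypc (r = 0.96), Ms4a6d (0.96), Sh3bp4 (0.96) and Car13 (0.95), and with the group means removed these had r of 0.84, 0.82, 0.85 and 0.78. Closest to Socs3 were the junction protein gene F11r (r = 0.97), the rhomboid-like gene Rhbdf2 (0.95), Tex15 (0.95) and Fam89a (0.94), with 0.89, 0.86, 0.82 and 0.78 once group means were removed. Their differences ran from 0.38 (Gypc) to 1.52 (Ms4a6d), a direction that the choice by r over both groups favours, and no gene stood in both lists. Socs2 and Socs3 themselves had r = 0.81 over all 11 arrays and r = 0.25 after removal of the group means. For Socs1 the nearest genes were Dync1li1 (r = 0.94), Dcp1b (0.93), Rnf151 (0.91) and Snx25 (0.91), none of which passed. For Cish, measured near background, they were Efcab15, Olfr70, Hrh3 and Etf1, with r from 0.87 to 0.90. These values describe 11 arrays that share a platform and were searched over many genes, so no p is given.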

How the data were processed

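Dendritic cells sorted from spleen were profiled on 1-colour Affymetrix whole-transcript arrays, 1 array per sample. The deposited values are log2 expression per probeset, made by the authors with RMA per the submitters' processing notes; its version and the genome build are not given in the sources used here. Of 41801 listed probesets 7329 were blank on every array. The other 34472 were used, and 23521 of them name 1 gene in the platform's probe table. Symbols were updated by Entrez ID through the RefSeq gene table (GRCm38.p6), and 22180 genes were tested, each on its probeset with the highest mean.

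Each difference (exposed minus naive) came from limma 3.58.1 under R 4.3.3, by lmFit and a trended eBayes step, without a block. A gene passed, and is said to have risen or fallen, with a p below 0.05 after Benjamini-Hochberg adjustment across the 22180 genes. SE and 95% limits are limma's moderated ones. The code was tested on simulated data. No dim gene was removed, and the number of arrays limits the precision.

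Members and gene lists were chosen with earlier results of these data known. The lists came from general knowledge, and 238 of their 253 entries had a value. A further list is not reported here and is not in these counts. Named from each pathway list were up to 4 passing members per direction, or, where none passed, its most different member. For Socs2, Socs3, Socs1 and Cish the 4 genes with the highest r were named.

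Arrays of the 2 groups share numbers in the titles (the last exposed array is 6 there and 5 in another label). Deviations from the group means correlated at 0.0880 to 0.231 between arrays of the same number, and 2 of 5 exposed arrays correlated best with their own number, so the numbers were not taken to pair arrays. Alternatives are given in the closing section.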

Additional observations from a re-analysis of the deposited data

Results flagged for a closer look

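Of 22 groups of values screened (11 probesets in 2 groups), 1 held an array far from the others of its group. Exposed array 6 measured 6.41 for Socs6, while the other 4 exposed arrays lay at 6.47 and 6.49, a gap of 0.85 of the group's range. Chance sets apart about 1 group in 20. The absolute gap is small, and 3 of the other arrays share 1 identical value.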

How the results depend on the processing

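Over all alternatives run, 199 of 218 values of the members kept their sign and their side of the threshold, 8 lost a pass and 11 changed sign without having passed. With 1 array left out, 2 SOCS genes (the lowest and the highest count) passed in all 11 fits: Socs2 lay between 0.75 and 0.89 (adjusted p at most 0.0282) and Socs3 between 0.69 and 0.95 (at most 0.0411). Under 3 rescalings Socs2 stayed at 0.79 to 0.83 and Socs3 at 0.80 to 0.83. A replicate block by the title's number gave 0.87 for Socs2 (adjusted p = 0.00427) and 0.82 for Socs3 (0.0256), and by the other number 0.78 and 0.85, so the block changed no member's call.

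Passes were lost in arrays 1 to 3 alone (0 SOCS genes and 11 genes in all; Socs2 1.00, adjusted p = 0.0760; Socs3 1.10, 0.0689) and in arrays 4 to 6 alone (0 SOCS genes and 5 in all; Socs2 0.62, 0.401; Socs3 0.46, 0.310), where fewer arrays are tested. With the red pulp macrophage covariate 1 SOCS gene passed, Socs3 no longer (0.71, 0.0843), and 170 genes in all; with the mature dendritic cell covariate 1 passed, Socs2 no longer (0.71, 0.0560); the cause was not tested. The other probesets gave 0.23 for Socs2 (0.150) and 0.77 for Socs3 (0.0557), with p adjusted over all probesets and not over genes as in the main fit.

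The signs that changed were all of small differences. Cish gave -0.0043 at a common 75th percentile, -0.00055 for the mean of its probesets, -0.027 in arrays 4 to 6, -0.0195 with the macrophage covariate and -0.032 at its other probeset. In arrays 1 to 3 Socs4 gave 0.026 and Socs6 0.11. With 1 array left out, Cish ranged from -0.028 to 0.090, Socs5 from -0.044 to 0.011 and Socs6 from -0.080 to 0.023.

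The 316 genes changed over all genes, 61.7% of them higher, became 617 with the number set as a block, 182 with a replicate block by the characteristic's number, 184 when adjusted over all probesets, and 104 (without exposed array 2) to 395 (without exposed array 6) with 1 array left out. It was also lower by over 1.5 times without naive array 1, 2, 3, 5 or 6 (155 to 177) or exposed array 3 (205). At a common 75th percentile 43.6% of the changed genes were higher. For arrays, a dim signal limits Cish and the other Socs3 probeset most.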

Other observations

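Identical values across arrays were common in the deposited table. Of the 11 SOCS probesets, 5 had a value that at least 2 arrays shared to every digit, and 45.2% of all probesets did. A value shared by 5 or more arrays, as for Socs5 and Socs6, occurred at 3.55% of all probesets. Spreads and gaps of these probesets are therefore coarser than their decimals.

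Among the 28 pairs of members, r over the 11 arrays with group means removed ran from -0.74 to 0.82. The highest was between Socs2 and Socs5 and the lowest between Socs5 and Socs7, while Socs4 and Socs6 had 0.70. Socs5 thus followed Socs2 from array to array within the groups while its means did not differ between them beyond the spread. These are descriptions over 11 arrays, with shared values in Socs5 and Socs6, and no test was made.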
